A study of Homo sapiens with 4 samples.

Results

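Intergenic IGF2BP3 peaks are stretches of RNA recovered with the RNA-binding protein IGF2BP3 whose point of highest signal, the summit, lies outside every annotated gene. They were taken from the peak lists of RNA immunoprecipitation followed by sequencing (RIP-seq) in OE-19 cells, a long-established human line from an adenocarcinoma at the esophagogastric junction. A peak was kept when it was at most 1000 bp wide, its summit lay outside every gene body of GENCODE release 44, and it was not on an unplaced scaffold. By that rule 451 of 44622 peaks (1.01%) were intergenic in RIP replicate 1 and 388 of 42723 (0.908%) in RIP replicate 2, which gives 839 of 87345 peaks in all and a mean of 419.5 ± 44.5 (SD, n = 2 replicates). The series held 2 RIP samples, made with an anti-IGF2BP3 antibody, and 2 input samples, made without one. Both groups came from OE-19 cells for which the labels name UV fixation and no other treatment or genetic change, while the study's account of RIP mentions no UV step. Input values were not used here. OE-19 is a single line, and the labels do not say whether the replicates came from separate cultures, so the spread between them may be technical. Read depth is unknown, and each comparison with background rests on the ratios that the peak caller of the authors gave.

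IGF2BP3 belongs to a family of proteins named for binding the mRNA of an insulin-like growth factor. They carry RNA recognition motifs and KH domains, bind mostly mRNA and are known as readers of N6-methyladenosine. Regions between annotated genes are not free of RNA. Transcription commonly runs on past the annotated 3′ end of a gene, mRNAs can end at later polyadenylation sites than the annotated ones, and long noncoding RNAs, pseudogenes and mobile elements are transcribed from places that one gene catalogue holds and another leaves out.

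The strongest loci and the largest clusters held very different sequences. The following runs are read from GRCh38 (hg38), 5′ to 3′ on the plus strand of the genome, since the peak lists carry no strand. Capitals mark the bases covered by the strongest peak of both replicates at that place, and lower case marks bases covered by the peak of 1 replicate or by none. The first run is shown because its locus passed a q of 0.05 in both replicates, the next because it belongs to a strong locus inside a RefSeq gene, and the last 4 because they come from clusters or from far outside genes.
chr2:173698113-173698233: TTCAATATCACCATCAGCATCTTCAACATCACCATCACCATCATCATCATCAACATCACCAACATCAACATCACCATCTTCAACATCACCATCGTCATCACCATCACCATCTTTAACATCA
chrX:49142220-49142340: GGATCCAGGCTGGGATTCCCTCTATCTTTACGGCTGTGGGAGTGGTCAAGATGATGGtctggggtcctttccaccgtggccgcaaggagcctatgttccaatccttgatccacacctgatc
chr1:117850770-117850836: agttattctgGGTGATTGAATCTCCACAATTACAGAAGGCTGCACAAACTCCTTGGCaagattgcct
chr3:187831038-187831158: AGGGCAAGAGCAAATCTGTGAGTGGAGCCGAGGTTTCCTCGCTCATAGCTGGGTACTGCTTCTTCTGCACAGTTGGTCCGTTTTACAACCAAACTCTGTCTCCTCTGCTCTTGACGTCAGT
chrX:69050311-69050431: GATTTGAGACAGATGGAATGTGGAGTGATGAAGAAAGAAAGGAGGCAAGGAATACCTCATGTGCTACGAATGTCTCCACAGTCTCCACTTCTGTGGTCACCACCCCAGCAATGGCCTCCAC
chr12:61490704-61490824: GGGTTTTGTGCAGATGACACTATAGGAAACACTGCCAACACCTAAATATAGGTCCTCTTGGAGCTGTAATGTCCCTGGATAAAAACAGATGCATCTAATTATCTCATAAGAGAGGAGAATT

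The intergenic peaks were modest in strength, and few of them passed the caller's own correction for multiple testing. Fold enrichment, the authors' ratio of RIP signal to local background at the summit, ran from 1.87 to 6.0 with a median of 2.52 in replicate 1, and from 1.8 to 5.46 with a median of 2.36 in replicate 2. Many peaks shared exactly the same fold. For example, 18 peaks had a fold of 2.22 in replicate 1, and 15 had a fold of 1.94 in replicate 2. The deposited q, which is the caller's p corrected for multiple testing, was at most 0.05 for 9 peaks in replicate 1 (2.0%, against 9.41% of all peaks at most 1000 bp wide) and for 7 in replicate 2 (1.8%, against 7.28%). In 80.3% and 89.4% of the intergenic peaks the q was 1, against 61.5% and 66.7% of all peaks in the lists. Widths ran from 33 to 939 bp with a median of 153 bp in replicate 1 and from 32 to 841 bp with a median of 145.5 bp in replicate 2, and the narrowest intergenic peaks outside the width limit measured 1090 and 1094 bp.

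Of the intergenic peaks of replicate 1, 186 (41.2%) overlapped a peak of replicate 2 by at least 1 bp, against 59.4% of all its peaks at most 1000 bp wide. In replicate 2, 207 (53.4%) overlapped a peak of replicate 1, against 63.6%. Sharing was therefore less common than in the whole list in both replicates, and 174 and 186 of the shared peaks met another intergenic peak of the rule. Intergenic peaks under 50 bp had a partner less often than intergenic peaks as a whole. In replicate 1 it was 11 of 62 (17.7%), and in replicate 2 it was 15 of 49 (30.6%). A narrower peak has less room to overlap another, so this share depends on width by construction.

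Where intergenic peaks of both replicates overlapped, their strengths moved together in part. Across 192 such pairs, which are not independent replicates, the log2 values of fold enrichment gave a Pearson's r of 0.487 and a Spearman's rho of 0.469. The value of replicate 1 was the higher one in 122 pairs. The summits of a pair lay a median of 103.5 bp apart, and in 60 pairs (31.3%) they lay within 50 bp.

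**Figure D1:**
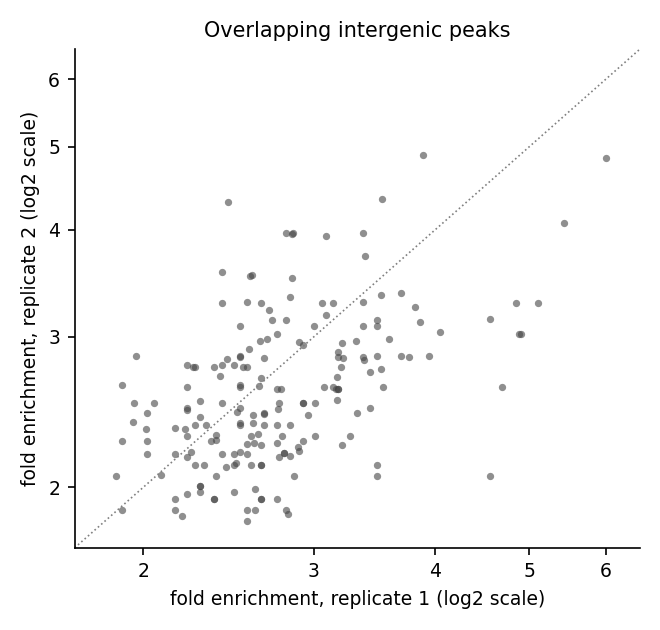
Fold enrichment of each of 192 overlapping pairs of intergenic peaks in replicate 1 (horizontal axis, log2 scale) and replicate 2 (vertical axis, log2 scale); 1 point is 1 pair and the dotted line marks equal values. The points lie in a broad band around the line (r = 0.487 on log2 values), and the highest fold in replicate 1 is 6.0.

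Intergenic peaks were set against intronic and exonic peaks of the same lists to show where they differed. The rule for class was the summit, and 1399 and 1222 peaks were intronic and 41916 and 40460 exonic. Compared with exonic peaks, intergenic peaks were weaker, less often shared and wider in both replicates, and the 2 groups of replicate values did not overlap. Compared with intronic peaks they were wider, slightly weaker and richer in GC. The shared part was 47.3% ± 8.56 (SD, n = 2) for intergenic, 48.4% ± 3.71 for intronic and 62.1% ± 2.84 for exonic peaks. The median fold enrichment was 2.44 ± 0.110 for intergenic, 2.58 ± 0.0846 for intronic and 2.92 ± 0.00543 for exonic peaks, and intergenic peaks were lower than the other classes in each replicate.

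The part with a q of at most 0.05 was 1.90% ± 0.135 of intergenic, 1.76% ± 0.641 of intronic and 8.62% ± 1.57 of exonic peaks. The median width was 149.25 ± 5.30 bp for intergenic against 103 ± 2.83 bp for intronic and 110.5 ± 3.54 bp for exonic peaks, and this order was the same in both replicates. The GC content averaged 48.3% ± 0.464, 46.3% ± 0.327 and 48.9% ± 0.225 in the same order. With 2 values against 2, a two-sided exact permutation test cannot give a p below 0.33, so no class difference could reach 0.05. All 5 comparisons with exonic peaks and 3 of the 5 with intronic peaks gave that smallest exact p (0.417 after Benjamini-Hochberg adjustment over 10 comparisons), while the shared part and the part past q against intronic peaks gave an exact p of 1. Taken within each replicate, intergenic peaks differed from the other class in the same direction in both replicates in 8 of the 10 comparisons. The exceptions were against intronic peaks, where the shared part differed by -4.58 points in replicate 1 and 2.29 in replicate 2, and the part past q by -0.22 and 0.495 points. With 2 pairs an exact paired permutation test cannot give a p below 0.5. A p above the threshold does not show that the classes are alike.

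**Figure D2:**
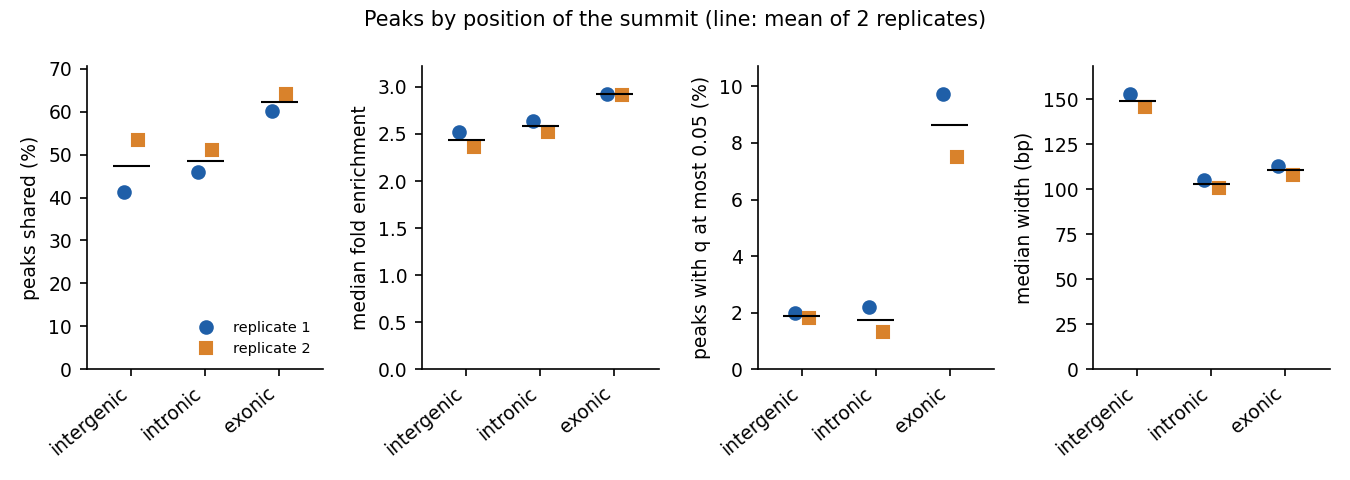
Share of peaks overlapping the other replicate, median fold enrichment, share of peaks past the q limit of 0.05 and median width (4 panels, vertical axes in percent, fold, percent and bp) for intergenic, intronic and exonic peaks; points are the 2 RIP replicates and lines their means. Exonic peaks lie apart from both other classes in fold (mean 2.92 against 2.44 and 2.58), while intergenic peaks stand apart in width (149.25 bp against 103 and 110.5 bp).

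Intergenic peaks lay close to genes, and above all past their 3′ ends. The median distance from summit to the nearest gene boundary was 2436 bp in replicate 1 and 2585 bp in replicate 2. Within 5 kb of a boundary lay 299 peaks (66.3%) and 265 peaks (68.3%), whereas 19.7% of intergenic bases lie that close. The nearest boundary was a 3′ end for 328 (72.7%) and 281 (72.4%) peaks, against 52.3% of intergenic bases. A 3′ end within 5 kb was the nearest boundary for 211 (46.8%) and 183 (47.2%) peaks, against 10.3% of bases. These bases are a background of length only, and how much of them the cells transcribe was not taken into account.

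Counted per Mb of intergenic sequence, summits fell off with distance on both sides, but over different lengths. Within 500 bp the values of both sides were close, with 3.02 and 1.93 summits per Mb past 3′ ends in replicates 1 and 2, and 2.97 and 2.26 per Mb before 5′ starts. Between 1 and 5 kb, 1.41 and 1.35 per Mb remained past 3′ ends against 0.417 and 0.491 before 5′ starts, a ratio of 3.39 in replicate 1 and 2.75 in replicate 2. Over the whole first 5 kb the densities were 1.64 ± 0.165 per Mb for 3′ ends and 0.783 ± 0.0391 per Mb for 5′ starts (SD, n = 2), and over all intergenic sequence 0.361 ± 0.0384 per Mb. The 3′ side was the denser one in each replicate over the first 5 kb, by ratios of 2.17 and 2.02, and the difference was not tested.

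**Figure D3:**
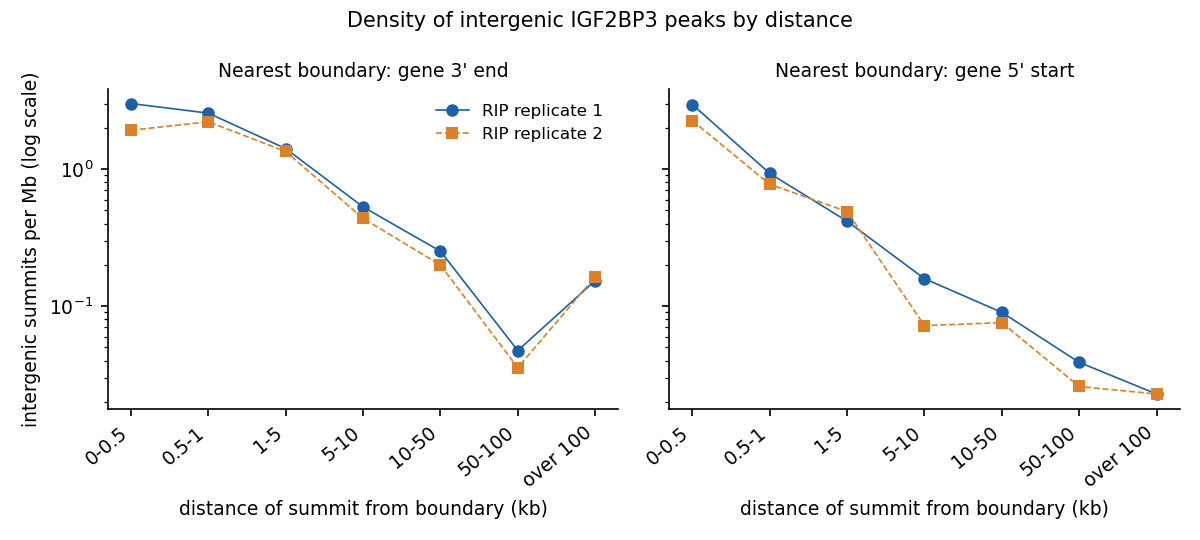
Intergenic summits per Mb of intergenic sequence (vertical axis, log scale) by distance to the nearest gene boundary in kb (horizontal axis), for boundaries that are 3′ ends (left) and 5′ starts (right); circles are replicate 1 and squares replicate 2. Beyond 500 bp the density stays higher past 3′ ends, for example 1.41 and 1.35 against 0.417 and 0.491 per Mb at 1 to 5 kb, and it rises again beyond 100 kb on the 3′ side.

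Beyond 100 kb from any gene boundary lay 17 peaks of replicate 1 and 18 of replicate 2. They came from few places: 22 of the 35 belonged to 1 cluster on chromosome X on the side of PJA1, 9 lay on chromosome 12 near the pseudogene DUX4L52, and 4 lay on chromosome 4 with MIR572 as the nearest gene. The rise in density at the right end of the plot by distance thus stands on single regions.

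The genes past whose 3′ ends the peaks lay often had exonic IGF2BP3 peaks themselves. Of the protein-coding genes with an intergenic peak within 5 kb of their 3′ end, 54 of 70 (77.1%) had an exonic peak in replicate 1 and 43 of 55 (78.2%) in replicate 2, against 32.6% and 31.6% of all 20033 protein-coding genes. Of long noncoding RNA (lncRNA) genes in that position, 18 of 29 (62.1%) and 12 of 19 (63.2%) had one, against 4.30% and 4.10% of all 18866. Transcript levels were not available from the values used, so that genes with and without such peaks were not matched for expression.

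Peaks just before 5′ starts formed a smaller group with its own base composition. Within 500 bp upstream of a 5′ start lay 42 and 32 peaks, with a mean GC content of 61.3% and 63.1% against 48.7% and 48.0% of all intergenic peaks. Their median fold was 2.63 and 2.43, and 22 (52.4%) and 18 (56.3%) were shared. RefSeq, a second gene catalogue, placed 54.8% and 62.5% of them inside one of its own genes. Examples, chosen after their values were seen, were a peak 41 bp before HNF4G, a nuclear receptor gene, with a fold of 3.32 in replicate 1, and a peak 13 bp before PCGF5, a Polycomb group gene, with a fold of 3.15 in replicate 1. HNF4G had 8 exonic peaks in that replicate and PCGF5 had 16. In RefSeq, both summits lay inside the gene of the same name.

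The label intergenic depended on the gene catalogue. RefSeq, in its GRCh38.p14 annotation, had a gene at the summit of 163 peaks (36.1%) in replicate 1 and 137 (35.3%) in replicate 2. Of these 300 peaks, 161 lay in lncRNA genes alone, 66 in protein-coding genes alone, 40 in pseudogenes and 18 in transcribed pseudogenes. Of the peaks inside a RefSeq gene, 44.8% and 62.8% were shared between replicates, and of the others 39.2% and 48.2%. Only a small part touched a GENCODE gene with their flanks: 28 peaks in replicate 1 and 21 in replicate 2.

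Overlapping peaks of the replicates were merged into 647 loci, of which 168 (26.0%) held peaks of both replicates, 277 of replicate 1 only and 202 of replicate 2 only. Loci at most 10 kb apart with no gene between them were then joined. This gave 164 lone loci, 51 pairs and 68 clusters of 3 or more loci. From replicate 1 alone there were 41 such clusters and from replicate 2 alone 42, and among peaks with a q of at most 0.05 or a fold of at least 4 there were 0. The clusters held 381 loci (58.9%), and 265 peaks (58.8%) of replicate 1 and 238 (61.3%) of replicate 2. Peaks of both replicates were present in 64 of the 68 clusters. Since the clusters were built from the pooled peaks, this does not show that single positions were repeated. A gene 3′ end lay within 5 kb of 50 clusters. The median cluster spanned 3268 bp and the longest 23888 bp, and peaks of 1 cluster may come from a single transcript. The 14 clusters of 8 or more loci held 158 loci (24.4%). Clustered loci were found in both replicates in 27.0% of cases and lone loci in 22.6%.

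The cluster with the most loci lay past the 3′ end of GDAP2, a protein-coding gene on the minus strand of chromosome 1. It held 28 loci between chr1:117840066-117862765, with 18 peaks in replicate 1 and 20 in replicate 2, and its summits lay 888 to 23391 bp past the gene's end. Consecutive loci were a median of 628 bp apart, and the peaks covered 6988 bp of the 22700 bp. The folds were even, with a median of 2.46 and a maximum of 2.97 in replicate 1 and a median of 2.40 and a maximum of 2.93 in replicate 2, and 21 of the 38 peaks were shared. The lowest q of any of them was 0.435. GDAP2 itself carried 17 and 18 exonic peaks, and RefSeq had no gene in the cluster. The strongest shared locus, chr1:117850705-117851081, had folds of 2.92 and 2.93 and lay 12674 bp past the gene, and its sequence is the chromosome 1 run printed above.

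The next cluster, on chromosome 3, had a lncRNA gene as the nearest gene on each side. It held 17 loci at chr3:187820901-187834009 with 12 peaks in each replicate, and began 15684 bp past the 3′ end of the lncRNA gene ENSG00000224049, which had no exonic peak in either replicate. RefSeq placed 8 of the 24 peaks in the lncRNA LOC105374264. Its strongest shared locus, chr3:187830835-187831773, had folds of 3.53 and 2.62. The third cluster, chrX:69030987-69054874, held 15 loci with 10 and 12 peaks and lay 106113 bp or more from PJA1, which encodes a ubiquitin ligase, and 188892 bp from EFNB1, which encodes an ephrin ligand. All of its 22 peaks fell in the RefSeq lncRNAs LOC105373242 and LOC102723911, and 16 of them were shared. It held the strongest of the far loci, chrX:69050232-69050963, with folds of 3.43 and 2.72.

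On chromosome 8, 12 loci filled the space between ZNNT1 and ZNF706 at chr8:101169653-101177844. The outermost summits lay 192 bp before the 5′ start of ZNNT1, a lncRNA gene, and 99 bp past the 3′ end of ZNF706, a zinc finger gene. Only 1 of the 12 loci was found in both replicates, so most single positions there were not repeated. Also on chromosome 8, 10 loci lay between the facing 3′ ends of SH2D4A, an SH2 domain adaptor gene, and CSGALNACT1, a chondroitin sulfate synthesis gene, at chr8:19396405-19404275. Its outermost summits lay 232 and 17 bp from those ends, and 5 of the loci were found in both replicates. Of the peaks nearest CSGALNACT1, 5 in replicate 1 and 6 in replicate 2, 10 were shared. The peaks nearest SH2D4A were 4 of replicate 1 only, with folds up to 3.97, and none was shared. In this cluster the lowest q was 0.121.

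The sixth cluster, chrX:102906466-102916184, held 10 loci with 7 and 6 peaks past the 3′ end of the lncRNA gene ENSG00000239407, starting 317 bp from it. RefSeq placed all 13 peaks in its own gene LINC00630, and 1 of them in ARMCX5-GPRASP2 as well. The folds were the lowest of the 6 clusters, with medians of 2.37 and 2.14. Of these 6 clusters, then, 4 held peaks inside RefSeq genes, and 3 reached to within 1 kb of the 3′ end of a protein-coding gene. None held a peak of at most 1000 bp with a q of at most 0.05. A wider peak of replicate 1 within the span of the third cluster, chrX:69045549-69047951, had a fold of 3.84 and a q of 0.0423.

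**Figure D4:**
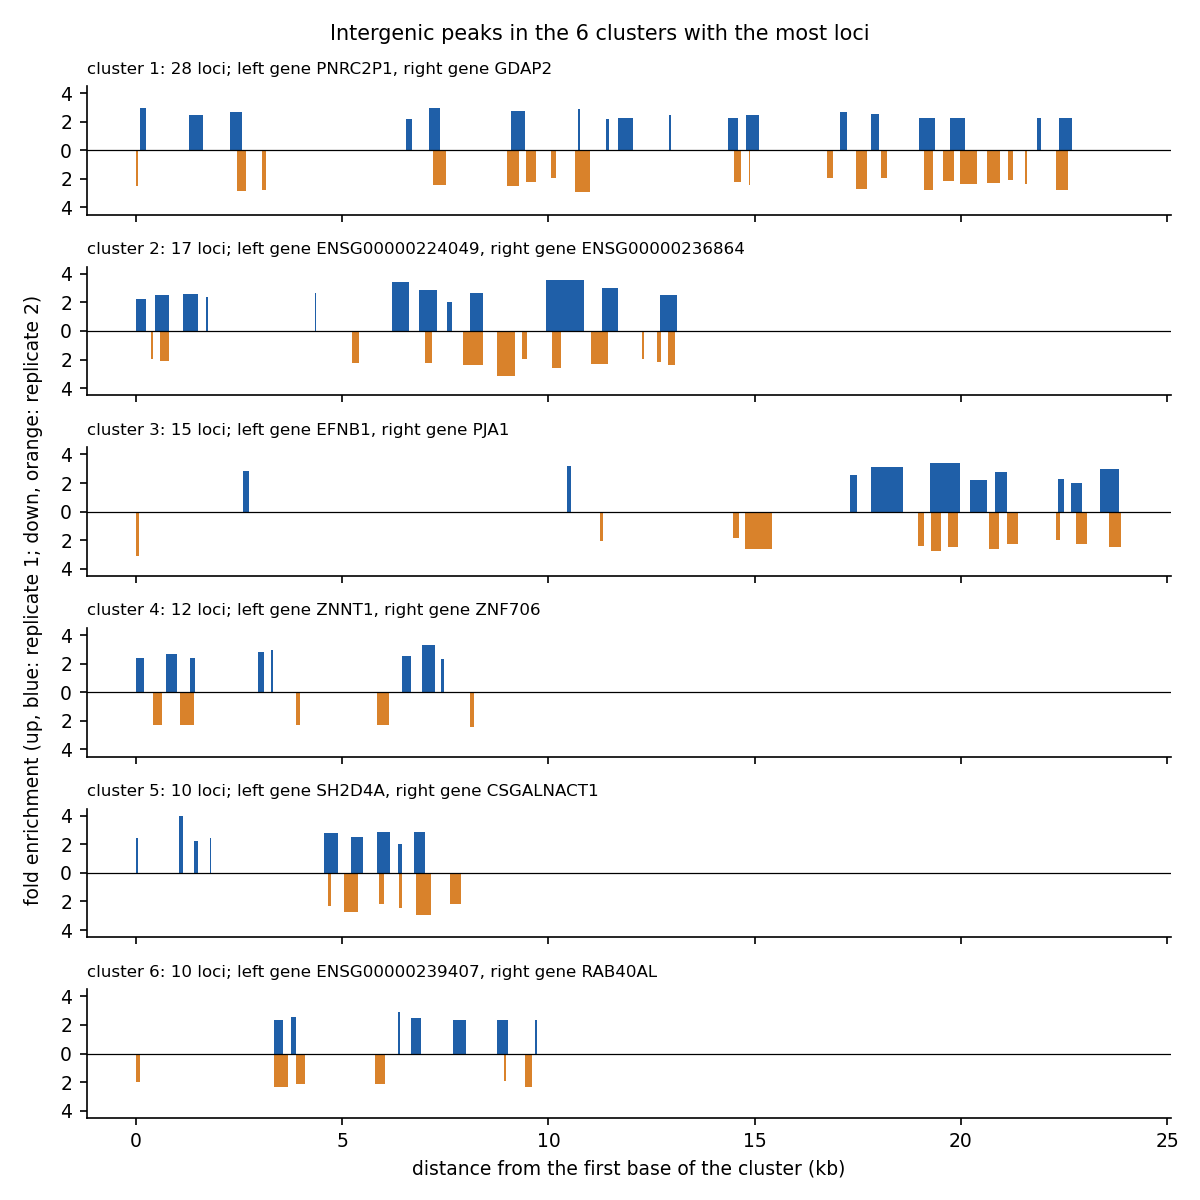
Intergenic peaks in the 6 clusters with the most loci, by distance in kb from the first base of the cluster (horizontal axis), with fold enrichment as height (vertical axis, upwards for replicate 1 and downwards for replicate 2); bar width is peak width. The 28 loci past GDAP2 stretch over 22700 bp with folds that do not exceed 2.97 in replicate 1 or 2.93 in replicate 2.

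The repeatability of single positions differed between clusters. At chr1:113686659-113692697, between the facing 3′ ends of MAGI3, a scaffold protein gene, and PHTF1, all 7 loci were found in both replicates, with folds between 2.52 and 3.39 in replicate 1 and between 2.62 and 3.96 in replicate 2. MAGI3 carried 12 and 15 exonic peaks and PHTF1 none. By contrast, at chr3:167668933-167682417, past PDCD10, a gene linked to cerebral cavernous malformations, none of 9 loci was found in both replicates. These 2 clusters were chosen after their values were seen.

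Counted by gene, the largest numbers of peaks past a 3′ end were 38 for GDAP2, 25 for ENSG00000224049, 22 for PJA1, 15 for the lncRNA gene G2E3-AS1 and 13 for DUX4L52. The same count of 13 was reached by ENSG00000239407. The peaks assigned to G2E3-AS1 lay 27117 to 31944 bp past it, inside the RefSeq gene LOC112267868, and 13 of the 15 were shared. Those assigned to DUX4L52 lay 96332 to 142775 bp away, and only the position is meant by such an assignment. DUX4L52, PJA1 and ENSG00000224049 had no exonic peaks, unlike GDAP2.

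The strongest loci found in both replicates lay apart from the clusters of 8 or more loci, with 2 exceptions on chromosome X. Among them was chr2:173697701-173698608, with folds of 5.43 and 4.07 and q values of 7.05e-05 and 0.00267. It lay 7775 bp past the 3′ end of the processed pseudogene ENSG00000237617. Over its 908 bp it had 34.8% C and 6.72% G on the plus strand and 68 copies of the word CATCA that do not overlap each other, and it matched no annotated transcript. It was 1 of 2 loci with a q of at most 0.05 in both replicates, and 14 loci had it in at least 1.

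On chromosome X, chrX:49142127-49142337 had folds of 5.10 and 3.28 and chrX:49139634-49139910 folds of 4.85 and 3.28. Both belong to a cluster of 8 loci in the RefSeq lncRNA LOC105373195, and lie more than 10 kb from RN7SL262P. Of the 13 peaks of that cluster, 8 had a near-identical annotated transcript, and the first of these loci matched ENSG00000266976 with 92.8% identity. That cluster had the highest median fold of the 14 clusters with 8 or more loci, at 3.32 in replicate 1 and 3.28 in replicate 2.

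Other strong loci were chr7:73301138-73301456 (folds 4.91 and 3.02) and chr12:106347699-106348443 (3.53 and 4.34). By GENCODE the first lay 80 bp past POM121B, a pseudogene of a nuclear pore protein family, whereas RefSeq placed it inside POM121B. It matched the related POM121C with 100% identity. In the other, the summit of replicate 1 lay 936 bp before the 5′ start of the lncRNA gene ENSG00000290003. The summit of replicate 2 lay 959 bp past the 3′ end of TCP11L2. Neither locus had a q of at most 0.05 in both replicates.

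The shared loci farthest from any gene boundary were 3 of the chromosome X cluster near PJA1 and 2 of a chromosome 12 cluster near DUX4L52. On chromosome X they lay 110110, 108562 and 107390 bp from PJA1, with folds of 3.43 and 2.72, 2.75 and 2.61, and 2.29 and 2.01. On chromosome 12 they lay 109280 and 107366 bp from DUX4L52, with folds of 2.75 and 2.36, and 2.41 and 2.78. Nothing there was strong, and each q was above 0.05. Presence in both replicates was a condition for naming these loci. RefSeq had a gene at the chromosome X loci and none at those of chromosome 12.

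Part of the intergenic peaks had a near-identical copy in an annotated transcript. Whether reads could be placed at both was not tested, and no match share was computed for other intergenic sequence. A match of at least 90% identity over at least 80% of the peak was found for 124 peaks (27.5%) in replicate 1 and 109 (28.1%) in replicate 2. Of these, 48 and 43 matched transcripts of more than 20 genes, as dispersed repeats do, and 33 and 25 matched a single gene. Identity was 97% or more for 73 and 61 peaks. Among the few peaks with a q of at most 0.05, 7 of 9 and 4 of 7 had a match (77.8% and 57.1%). The sources name different aligners, so how reads with several placements were treated was not settled, and the part of such reads in the peaks was not tested.

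Of the peaks that matched a single gene, 17 of 33 in replicate 1 and 12 of 25 in replicate 2 had a pseudogene as the nearest gene. At chr3:148984228-148984386, next to UBQLN4P1, the folds were 4.69 in replicate 1 and 2.62 in replicate 2, and the sequence was 100% identical to transcripts of UBQLN4, a ubiquilin. Past OCLNP1, a peak in each replicate (folds 2.41 and 2.51) was 100% identical to OCLN, which encodes the tight junction protein occludin. Past EIF4HP1, 2 peaks of replicate 1 with folds of 3.67 and 3.41 were 100% identical to EIF4H, a translation initiation factor, and neither was shared. These 3 were chosen after their values were seen. In RefSeq, the peaks by UBQLN4P1 and EIF4HP1 lay inside those pseudogenes, and the peaks by OCLNP1 lay in no gene. The single matched gene had an exonic peak of its own for 13 of 33 peaks (39.4%) in replicate 1 and for 10 of 25 (40%) in replicate 2, beside 32.6% and 31.6% of all protein-coding genes, although not every matched gene is protein-coding. Of the peaks that matched 1 to 20 genes, 40 of 76 (52.6%) and 47 of 66 (71.2%) matched at least 1 gene with an exonic peak. A peak with more matched genes has more chances of this. No background share for such groups of genes was computed, so these shares are a description only.

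Short words were counted in windows of 101 bases centred on the summit, on both strands, since the strand of a peak is not known. The word GGAC, the core of the usual N6-methyladenosine site, was present in 43.2% and 45.4% of intergenic windows, 43.2% and 43.1% of intronic and 48.8% and 48.3% of exonic ones. The longer word TGGAC, which always holds GGAC, was present in 16% and 17.5% of intergenic, 14.9% and 15.1% of intronic and 19.9% and 19.6% of exonic windows. The loose methylation motif DRACH overlaps with both words and was present in 96.9% of intergenic windows in each replicate, so it sets no class apart.

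The word CACACA, of the CA-rich kind bound by IGF2BP proteins, was present in 8.87% and 11.3% of intergenic windows against 5.65% and 8.84% of intronic and 6.75% and 6.44% of exonic ones. The polyadenylation word AATAAA was present in 6.87% and 10.1% of intergenic windows, fewer than the 13.4% and 13.7% of intronic ones, and in 7.81% and 8.46% of exonic ones. Its variant ATTAAA was present in 7.32% and 5.67% of intergenic, 8.86% and 8.76% of intronic and 5.94% and 6.18% of exonic windows. In windows within 5 kb past a 3′ end, AATAAA was present on the strand of that gene in 9 of 211 (4.27%) and 8 of 183 (4.37%), and on the other strand in 11 of each set. A word in a window is a description and no binding or cleavage site.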

How the data were processed

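Peak lists of 2 IGF2BP3 RIP replicates from OE-19 cells were used. The authors called peaks per replicate, and the 2 input samples were not analysed here. The study's methods name Tophat2 and MACS2 with their defaults, whereas the submitters' processing notes name fastp, HISAT2 and MACS2 and the build hg38. The library used as control and the read depth are not given in the sources used here. The smallest deposited −log10 p was 2.0003. Per the labels the library kit was directional, but the deposited lists carry no strand. The authors deposited for each peak a score, a fold enrichment (a ratio of signal to local background), a −log10 p, a −log10 q and the offset of the summit. None of these is a count, so no counting interval can be given.

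Summits were placed against GENCODE release 44 with Python 3.11.15 and pandas 2.3.3. A peak was intergenic outside all gene bodies, exonic on an exon and otherwise intronic. Distance was measured to the nearest gene boundary. Shared peaks overlap by 1 bp or more. Peaks of both replicates that overlapped were merged into loci, and loci at most 10 kb apart without a gene between them into clusters, counted from 3 loci. Peak sequences were compared with GENCODE transcripts by blastn 2.17.0 with a word size of 16, requiring 90% identity over 80% of the peak. RefSeq genes were those of GRCh38.p14. Classes were compared over the 2 replicate values with a two-sided exact permutation test (scipy 1.17.1) and Benjamini-Hochberg adjustment over 10 comparisons. Shares of soft-masked bases, planned as further comparisons, were not computed because the reference sequence used is all in upper case. Functions were tested on simulated data.

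Regions named were the 8 shared loci of highest mean fold, loci with a q of at most 0.05 in both replicates, the 6 clusters with the most loci, the 5 shared loci farthest from a gene boundary and the 5 genes with the most peaks past their 3′ end. Other examples are marked in the text. Of the 8 strongest loci, 3 are not reported here, among them 1 of the 2 loci with a q of at most 0.05 in both replicates. The members, lists and rules were chosen with earlier results of these data known. Alternatives tried were limits on q, fold and width, whole peaks outside genes, other gene sets, other distances, gaps, overlaps and identities, 1 replicate at a time, and classes paired within each replicate.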

Additional observations from a re-analysis of the deposited data

Results flagged for a closer look

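Wide intergenic peaks, left out by the limit of 1000 bp, numbered 12 in replicate 1 and 13 in replicate 2. They have more room for overlap than the narrower ones and were shared more often, in 12 of 12 and 12 of 13 cases. In RefSeq genes lay 8 and 12 of them. Several belonged to the same regions as the clusters. Among them was a peak of 2403 bp in replicate 1 on the side of PJA1, with a fold of 3.84 and a q of 0.0423. Another, of 1216 bp in replicate 1, lay past GDAP2, with a fold of 3.32 and a q of 0.483. The strongest, at chr2:110285633-110287461 in replicate 2, had a fold of 10.1 and a q of 4.08e-09 and lay 1058 bp past ENSG00000282304. RefSeq had the gene LOC128966597 at its summit. In replicate 1, the narrower intergenic peaks there, at chr2:110286394-110286944, had folds of at most 2.38 and no q of at most 0.05. Each of these narrower peaks had a near-identical annotated transcript.

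A further 13 peaks of replicate 1 and 12 of replicate 2 lay on unplaced scaffolds. They were not assigned to any class.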

How the results depend on the processing

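RIP and input samples could not be paired, since input values were not used here. Classes of 1 library are paired by construction, and with the replicate as a block, an alternative added after seeing the data, the mean differences stayed as they are (for example -14.81 points in the shared part against exonic peaks), with an exact paired p of 0.5 in 8 comparisons and 1 in the others. Shares were counted as moved past 1 SD between replicates, numbers past 1.5 times, and class differences only on a change of sign. By that measure 27 of 117 alternative values moved, 9 changed sign and 81 did neither. Some of the 81 still changed much in size, such as the width against exonic peaks (203.8 bp at folds of 4 or more, against 38.75 bp) and the part past q against intronic peaks (19.12 points at folds of 4 or more, against 0.1372). The cause of each change was not tested. Limits on q and fold leave fewer peaks by construction. With peaks of q at most 0.05 only, the mean number was 8, the shared part 25.4%, the part within 5 kb past a 3′ end 50.79%, the part with a matching transcript 67.46% and the number of clusters 0. The same 5 values at folds of 4 or more were 9.5, 21.59%, 53.98%, 56.82% and 0. For the shared part at these 2 limits, a partner peak had to pass the same limit. Against all peaks of the other replicate, intergenic peaks with q at most 0.05 were shared in 8 of 9 cases (88.9%) in replicate 1. In replicate 2 it was 6 of 7 (85.7%). The like share for all peaks with q at most 0.05 is not given here, so these values do not set intergenic peaks apart. Outside RefSeq genes too, an alternative chosen after seeing the data, the number was 269.5, the 3′ end part 50.18% and the match 23.16%. With bodies of protein-coding and lncRNA genes only, the 3′ end part was 31.44%, the match 41.15% and the clusters 103. The 3′ end part was 46.66% without a limit on width (match 27.11%), 47.6% for whole peaks outside genes, 17.3% within 1 kb, 55.66% within 10 kb and 33.48% for the nearest protein-coding gene. The shared part was 15.45% when 50% of both peaks had to overlap. The match was 15.95% at 97% identity and 46.58% at 80% identity over 50%. Leaving out 1 replicate gave 41 to 42 clusters against 68, fewer peaks being joined.

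Differences that changed direction, as intergenic minus the other class, were these. Against exonic peaks, the shared part was 1.459 points higher at q of at most 0.05, the part past q 15.63 points higher at a fold of at least 4, and GC 0.6232 points higher at q of at most 0.05 and 0.5922 with protein-coding and lncRNA genes only. That shared part counted only partner peaks past the same limit of q. Against intronic peaks, the fold differed by 0.0701 and the width by -37.25 bp at q of at most 0.05. The part past q differed by -0.07142 points without a limit on width, -0.1358 for whole peaks and -0.2969 outside RefSeq genes. In all tested values, 59 of 68 kept their direction. Masking of low-complexity sequence, also chosen after seeing the data, gave a match of 27.66%, and a soft-masked query was not run. Read depth is unknown and limits what a missing partner peak can show.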

Other observations

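Intergenic peaks were spread unevenly over the chromosomes. Chromosome 8 held 45 and 31 of them in replicates 1 and 2, or 0.838 and 0.577 per Mb of intergenic sequence, and chromosome 21 held 14 and 13, or 0.771 and 0.716. Chromosome 19 had 0.695 and 0.749 per Mb, while chromosome 13 had 0.105 in each replicate and chromosome 18 0.0799 in each. Chromosome X held 49 and 50 peaks and 9 of the clusters of 3 or more loci. Chromosome 15 held 6 peaks in replicate 1 and 16 in replicate 2.

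By type of the nearest gene, 362 of the 839 peaks lay next to a protein-coding gene, 260 next to a lncRNA gene and 108 next to a processed pseudogene. Clustered peaks had a lower GC content than the others, 46.3% and 45.6% against 52.1% and 51.8%, and fewer transcript matches, 22.6% and 21.4% against 34.4% and 38.7%. These differences were not tested.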
